A study of Mus musculus with 12 samples.

Results

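The genes described here are 43 genes of ribosome biogenesis, nucleolar structure and Myc-driven growth, chosen by name among the 19935 genes that had a probe set with a single gene symbol. Their RNA was measured in hematopoietic stem cells (HSCs), which renew themselves and produce all blood lineages. Lots of 5000 to 7000 cells were sorted that carried c-kit, Sca-1 and CD150 but neither CD48 nor lineage markers. The donors were mice of 2 to 3 months in 4 groups: males given 100 µL of corn oil, males given 2 µg of estradiol (E2) in corn oil, females given the oil alone, and females given E2 in oil. Each group had 3 biological replicates from 3 mice, and each replicate was run on 1 microarray. The injections were subcutaneous and the oil groups are the controls; no genotype, strain or length of treatment is stated in the labels.

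Ribosomes are assembled in the nucleolus, where RNA polymerase I transcribes the precursor of the ribosomal RNAs. Small nucleolar RNPs (snoRNPs) guide its chemical modification, and a large set of assembly factors cleaves and folds it into the small and the large ribosomal subunit. The transcription factor Myc drives many of these genes, together with the enzymes of polyamine synthesis. Quiescent HSCs are known for a low rate of protein synthesis, and production of ribosomes climbs when cells prepare to divide.

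Promoter windows are shown first for the members with the smallest p in the E2 comparison whose window holds CACGTG, the E-box that Myc with its partner Max can bind. The windows come from RefSeq (GRCm38.p6), run from 250 bases before to 50 after a gene's start, and were found for 36 of the 43 members; Fbl, Npm1, Rrp12, Bop1, Rrs1, Myc and Srm were not matched. Capitals mark CACGTG, which reads alike on both strands. For Nop2 (chr6:125131633-125131882, plus strand) and Utp18 (chr11:93885767-93886016, minus strand) the 250 bases before the start are shown, with the E-box beginning at -60 and -20. For Mybbp1a (chr11:72441347-72441376, plus strand) and Ltv1 (chr10:13193092-13193121, minus strand) the E-box begins at base 41 and base 29 after the start, and 30 bases around it are shown.
Nop2: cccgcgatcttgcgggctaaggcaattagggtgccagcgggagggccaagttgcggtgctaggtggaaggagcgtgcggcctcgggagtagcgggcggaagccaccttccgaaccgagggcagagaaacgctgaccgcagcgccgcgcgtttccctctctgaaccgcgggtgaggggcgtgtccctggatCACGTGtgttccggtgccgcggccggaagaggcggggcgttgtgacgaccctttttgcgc
Utp18: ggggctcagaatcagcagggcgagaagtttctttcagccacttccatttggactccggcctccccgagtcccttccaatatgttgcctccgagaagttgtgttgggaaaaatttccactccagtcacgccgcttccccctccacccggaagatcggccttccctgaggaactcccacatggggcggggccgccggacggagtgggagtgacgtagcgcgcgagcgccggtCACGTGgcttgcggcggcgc
Mybbp1a: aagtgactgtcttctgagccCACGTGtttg
Ltv1: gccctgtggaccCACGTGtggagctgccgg

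Nhp2, Gnl3 and Bysl rose in the E2 comparison described further on and have no CACGTG in their windows. The 120 bases before the start are shown for Nhp2 and Gnl3, chosen after their values had been seen. Capitals mark the GC box GGGCGG on either strand, a site of Sp-family factors. These genes were picked because that stretch holds a GC box. Bysl is not shown, since its only GC box begins at base 21 after the start. The stretch is chr11:51619653-51619772, plus strand for Nhp2 and chr14:31019132-31019251, minus strand for Gnl3.
Nhp2: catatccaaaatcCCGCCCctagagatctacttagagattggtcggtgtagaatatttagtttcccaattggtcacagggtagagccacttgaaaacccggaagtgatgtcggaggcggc
Gnl3: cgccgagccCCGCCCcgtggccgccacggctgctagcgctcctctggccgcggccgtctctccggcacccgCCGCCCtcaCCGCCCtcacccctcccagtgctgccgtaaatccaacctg
CACGTG was found in the windows of 9 of 36 members (25%), against 8.09% of all 27025 genes with a window and 11.9% of the 8068 of them that entered the tests below. The variant CACGCG, searched on both strands, was found in 12 members (33.3%) against 20.2% of the tested genes, and the GC box in 27 (75%) against 68.5%. Matches that overlapped by some bases were counted for each motif. The full palindromic estrogen response element was found in 0 of the 36 windows, 0 of the 8068 tested genes and 0.074% of all genes. The 9 members with CACGTG had a median log2 fold change with E2 of 0.19 and the 27 without it 0.18. These are matches of letters in a short window and not measured binding.

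Values are probe set intensities on a linear scale, and fold changes are on the scale of log2(intensity + 1). All 12 arrays matched their sex labels. Median intensity per array lay between 143 and 159. With 3 arrays a group, array number sets the precision. A gene entered the tests if its mean of log2(intensity + 1) over the 12 arrays exceeded 7.52, that of the median gene. On the linear scale this filter value corresponds to an intensity of 182. All 43 members and 9967 genes in all passed. Of the HSC markers, Kit read 1820 to 2756, Procr 550 to 923 and Slamf1, which encodes CD150, 350 to 686, while Cd48 stayed at 62.8 to 116. None of 59 other-lineage markers measured was listed at 0. No probe set was, since the lowest value was 0.62, so this says nothing about the presence of other cells. RNA of a sorted population was measured, so fewer cells of a type and less RNA per cell cannot be told apart in any result here.

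E2 against oil, averaged over the sexes with equal weight, was the main comparison. The genes of ribosome production lay slightly higher under E2 as a group, and no member passed the test as lower. Srm, Bysl, Nop2, Nhp2 and Gnl3 rose by 1.21-fold to 1.33-fold. Myc itself did not pass the test, at a log2 fold change of -0.07.

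**Figure D1:**
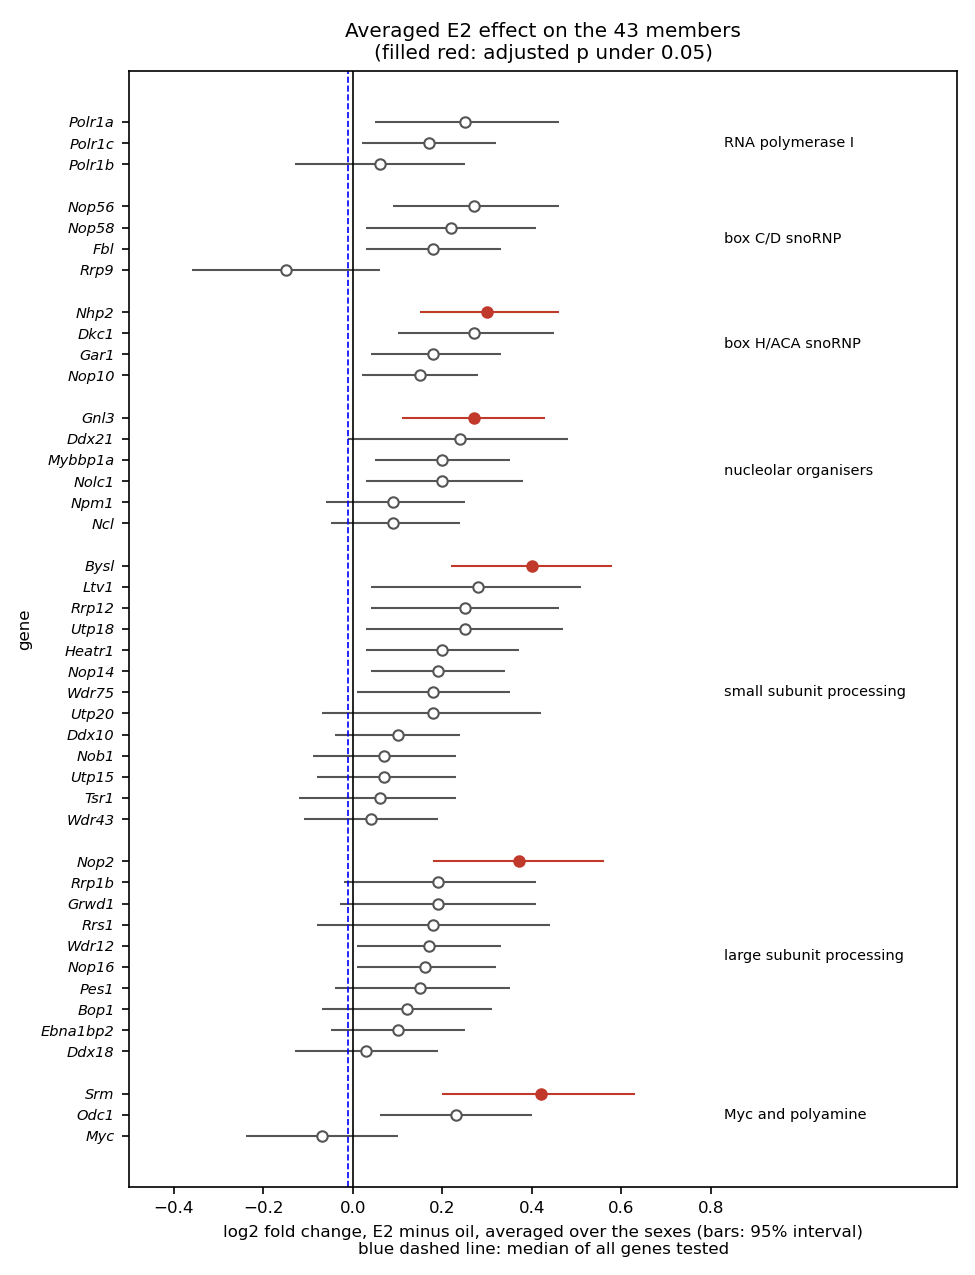
Log2 fold change of each member, E2 minus oil averaged over the sexes (horizontal axis, bars are 95% intervals from limma), grouped by role. The 5 filled points are the called genes, 41 of 43 points lie above 0, and the dashed line is the median of all tested genes at -0.01.

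By limma's moderated test with Benjamini-Hochberg adjustment over all 9967 genes, 5 of 43 members were called higher (11.6%), 0 lower and 38 did not pass. Among all tested genes 8.90% were called, 3.12% higher and 5.78% lower. An unadjusted p under 0.05 was reached by 24 of 43 members, against 2453 of all 9967 genes (24.6%). The median log2 fold change of the members was 0.18, against -0.01 over all tested genes. The estimate was above 0 for 41 of 43 members, against 46.7% of all genes, with Rrp9 and Myc as the exceptions. The count of called members moved with single arrays, and so did the count over all 9967 genes, 311 of which were called higher. It was 1 member without male E2 replicate 2 (168 genes higher) or without female oil replicate 2 (148 genes). It was 3 members without male oil replicate 2 (166 genes), male E2 replicate 3 (170 genes) or female oil replicate 3 (177 genes). Without female E2 replicate 3 it was 13 members (452 genes).

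RNA polymerase I was represented by its catalytic subunits Polr1a and Polr1b and by Polr1c, which it shares with RNA polymerase III. Of these 3 genes 0 passed, with 2 at an unadjusted p under 0.05. Polr1a read 468, 504 and 496 in oil-treated males and 539, 669 and 564 under E2. In females it read 561, 472 and 435 under oil and 707, 537 and 503 under E2. All male E2 arrays were above all male oil arrays, while the female groups overlapped, and the averaged log2 fold change was 0.25 ± 0.09 (SE; adjusted p = 0.112). Polr1c was at 0.17 (adjusted p = 0.139) and Polr1b at 0.06 (adjusted p = 0.717).

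Box C/D snoRNPs carry out ribose methylation of ribosomal RNA. Their scaffold proteins Nop56 and Nop58 were at 0.27 (adjusted p = 0.0679) and 0.22 (adjusted p = 0.137), and the methyltransferase gene Fbl at 0.18 (adjusted p = 0.128), so none of them passed. Nop56 read 1261 to 1277 in male oil, 1485 to 1764 in male E2, 1178 to 1435 in female oil and 1286 to 1820 in female E2 arrays. Rrp9, a protein of the snoRNP that guides early cleavages, lay the other way. It read 452, 491 and 347 in male oil against 366, 398 and 328 in male E2 arrays, and 432, 369 and 441 in female oil against 429, 414 and 339 in female E2 arrays. Both pairs of groups overlapped, and its log2 fold change of -0.15 (95% interval -0.36 to 0.06) did not pass.

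Box H/ACA snoRNPs convert uridine to pseudouridine and also stabilise telomerase RNA. Of their 4 core proteins 1 rose and 3 did not pass, and all 4 had an unadjusted p under 0.05. Nhp2, an RNA-binding core protein, read 1416, 1410 and 1595 in male oil and 1748, 1995 and 1752 in male E2 arrays. In females Nhp2 read 1726, 1479 and 1422 under oil and 2022, 1860 and 1785 under E2. The E2 arrays stood above the oil arrays in both sexes, and Nhp2 rose by 0.30 ± 0.07 on the log2 scale (adjusted p = 0.0168). The call was narrowly lost without male E2 replicate 2 (adjusted p = 0.0512) or female oil replicate 2 (adjusted p = 0.0518). Dkc1, the pseudouridine synthase, lay just short of the threshold at 0.27 ± 0.08 (adjusted p = 0.0531). It read 784 to 894 in male oil and 1006 to 1103 in male E2 arrays, which did not overlap, but 853 to 980 and 842 to 1166 in females, which did. Gar1 was at 0.18 (adjusted p = 0.103) and Nop10 at 0.15 (adjusted p = 0.151).

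Among the nucleolar organisers and regulators 1 of 6 rose. Gnl3 (nucleostemin), a nucleolar GTPase of stem and dividing cells, read 1260, 1168 and 1394 in male oil and 1514, 1791 and 1583 in male E2 arrays. In females it read 1444, 1231 and 1251 under oil and 1637, 1431 and 1405 under E2, with overlap. Gnl3 rose by 0.27 ± 0.07 (adjusted p = 0.0368). This call was lost in 7 of 12 fits that left out 1 array, at up to 0.101, namely without male oil replicates 1 or 2, male E2 replicates 2 or 3, female oil replicates 2 or 3, or female E2 replicate 1. It was also lost without a filter on low values, with a lower filter and after median centring (adjusted p = 0.0783). The most abundant nucleolar proteins, nucleolin (Ncl) and nucleophosmin (Npm1), were at 0.09 each, with 95% intervals of -0.05 to 0.24 and -0.06 to 0.25. The helicase gene Ddx21 was at 0.24 (adjusted p = 0.214), the snoRNP chaperone gene Nolc1 at 0.20 (adjusted p = 0.143) and the polymerase I regulator Mybbp1a at 0.20 (adjusted p = 0.0979).

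Of 13 genes of small subunit processing 1 rose, and all 13 were above 0 with a median of 0.18. Bysl (bystin), a late assembly factor of the small subunit, read 167, 186 and 181 in male oil and 218, 263 and 248 in male E2 arrays. In females it read 218, 161 and 188 under oil and 263, 244 and 215 under E2, where the highest oil array lay just above the lowest E2 array. Bysl rose by 0.40 ± 0.08 (adjusted p = 0.0105), and the call held in all 12 fits that left out 1 array, with an adjusted p of 0.00593 to 0.0325. Its oil level lay around the filter value of 182, so the size of the change is approximate. Ltv1 and Rrp12, which act in export and maturation of the small subunit, were at 0.28 (adjusted p = 0.133) and 0.25 (adjusted p = 0.136). In males Rrp12 read 204, 213 and 195 under oil and 236, 304 and 280 under E2.

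The factors that bind the nascent transcript first, Heatr1, Utp15, Wdr43 and Wdr75, were at 0.20, 0.07, 0.04 and 0.18. Utp18, Utp20 and Nop14, further parts of the small subunit processome, were at 0.25, 0.18 and 0.19, and the helicase gene Ddx10 at 0.10. Tsr1 and Nob1, which act in the last steps of small subunit maturation, were at 0.06 and 0.07. None of these passed, and their SEs were 0.07 to 0.11. Wdr43 was at -0.01 without female E2 replicate 1.

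Of 10 genes of large subunit processing 1 rose, and all 10 were above 0 with a median of 0.17. Nop2, a methyltransferase of the large subunit RNA and a marker of proliferating nucleoli, read 348, 348 and 351 in male oil and 380, 485 and 518 in male E2 arrays. In females Nop2 read 385, 348 and 324 under oil and 508, 394 and 450 under E2. The groups did not overlap in either sex, and Nop2 rose by 0.37 ± 0.09 (adjusted p = 0.0187). Its adjusted p was 0.0546 without male E2 replicate 2, 0.0519 without male E2 replicate 3, 0.0507 without female oil replicate 2 and 0.0526 without female oil replicate 3.

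Pes1, Bop1 and Wdr12, which form 1 complex in large subunit maturation, were at 0.15, 0.12 and 0.17 and did not pass. Nop16, Rrs1, Rrp1b and Grwd1 were at 0.16, 0.18, 0.19 and 0.19, and Ebna1bp2 at 0.10. Ddx18 was at 0.03 by the probe set used and at 0.17 by its other one, and the first was at -0.03 without female E2 replicate 1.

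Of Myc and the polyamine enzymes, Srm, which encodes spermidine synthase, had the largest estimate of all 43 members. Srm read 893, 852 and 911 in male oil and 1226, 1455 and 1322 in male E2 arrays. In females it read 1159, 912 and 1099 under oil and 1580, 1204 and 1013 under E2. The male groups stood well apart and the female groups overlapped. Averaged, Srm rose by 0.42 ± 0.10 (adjusted p = 0.0213), with an adjusted p of 0.0521 when no filter on low values was used, 0.0555 without male oil replicate 2, 0.0618 without male E2 replicate 2 and 0.0636 without female oil replicate 2. Odc1, the rate-limiting enzyme of the same pathway, read 1742, 1629 and 1770 in male oil and 1940, 2175 and 2016 in male E2 arrays. In females Odc1 read 1817, 1529 and 1629 under oil and 2285, 1795 and 1699 under E2, and its 0.23 ± 0.08 did not pass (adjusted p = 0.0876).

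Myc read 2949, 3222 and 2961 in male oil and 2959, 3265 and 3185 in male E2 arrays. In females it read 3471, 3222 and 3385 under oil and 3568, 2807 and 2576 under E2, so a single E2 array was above and the other two were below every oil array. The averaged log2 fold change of Myc was -0.07 (adjusted p = 0.628), with a 95% interval of -0.24 to 0.10.

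**Figure D2:**
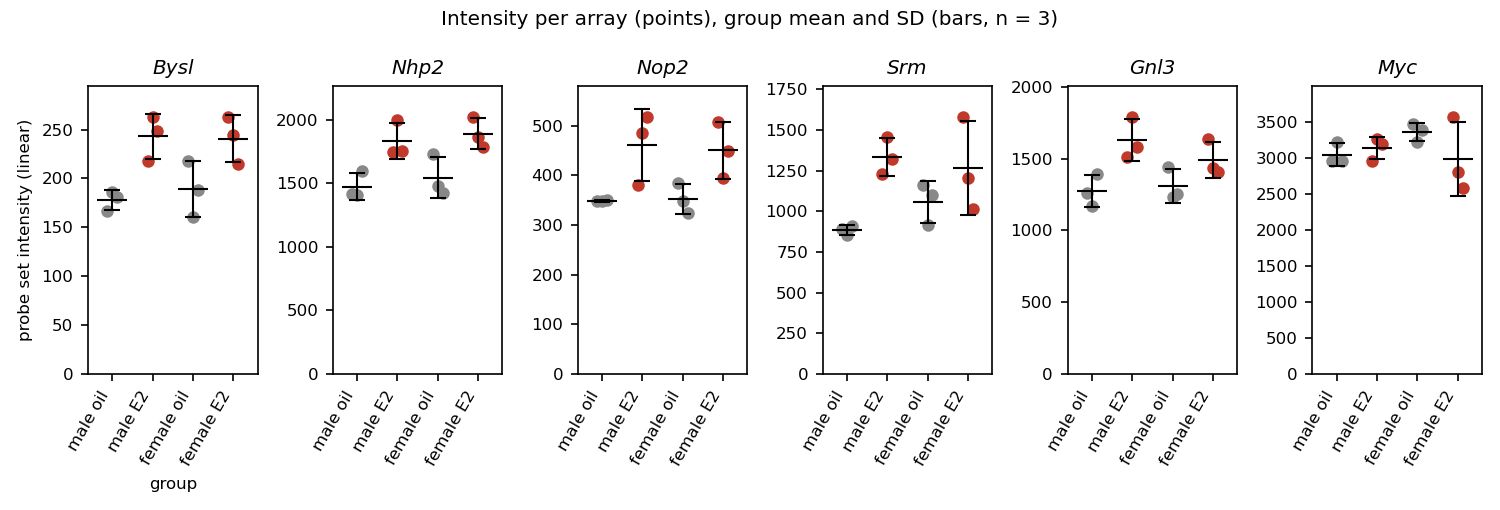
Linear probe set intensity on each of the 12 arrays (points) with the group mean and SD (bars, n = 3) for the 5 called members and Myc. The male E2 arrays of all 5 called genes lie above the male oil arrays, while for Srm, Bysl and Gnl3 the female groups overlap; Myc shows no separation in males.

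The sexes were also tested apart, on separate arrays. In males the median log2 fold change of the members was 0.23 (all genes -0.00) and 42 of 43 estimates were above 0, against 50.0% of all genes. All 3 E2 arrays stood above all 3 oil arrays for 24 of 43 members (55.8%), against 13.6% of all genes tested. By limma's test 0 of 43 members were called in males and 16 had an unadjusted p under 0.05, while 1.43% of all genes were called (0.572% higher, 0.863% lower) and 14.7% had such a p. The largest male values were Srm at 0.59 ± 0.14 (adjusted p = 0.0643), Bysl at 0.44 ± 0.12 (adjusted p = 0.094), Rrp12 at 0.42 (adjusted p = 0.185) and Nop2 at 0.39 (adjusted p = 0.157). When only the male arrays were fitted, or arrays were weighted, 3 members were called, Srm, Bysl and Dkc1. Calls over all 9967 genes rose in these fits too. With the male arrays alone 196 genes were called higher and 194 lower, and with weights 185 and 224, against 57 and 86 in the main fit. Srm alone was called without female E2 replicate 1 (adjusted p = 0.00942) or female E2 replicate 3 (adjusted p = 0.0239) in the fit over all groups, which share 1 estimate of the spread. Over all genes 159 and 74 were called higher in those fits.

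In females the median was 0.13 (all genes -0.02) and 37 of 43 estimates were above 0, against 44.2% of all genes. Polr1c, Gar1, Nhp2, Nop10 and Nop2, 5 of 43 (11.6%), had all E2 arrays above all oil arrays, against 6.95% of all genes. By limma's test 0 of 43 members were called in females and 4 had an unadjusted p under 0.05, while 3.56% of all genes were called (0.813% higher, 2.75% lower) and 18.6% had such a p. The largest female values were Bysl and Nop2 at 0.35 (adjusted p = 0.122 and 0.136), Nhp2 at 0.30 (adjusted p = 0.122), and Srm, Gar1 and Polr1a at 0.24. In both sexes at once 3 members, Nhp2, Nop10 and Nop2, were free of overlap (6.98%; 2.32% of all genes).

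**Figure D3:**
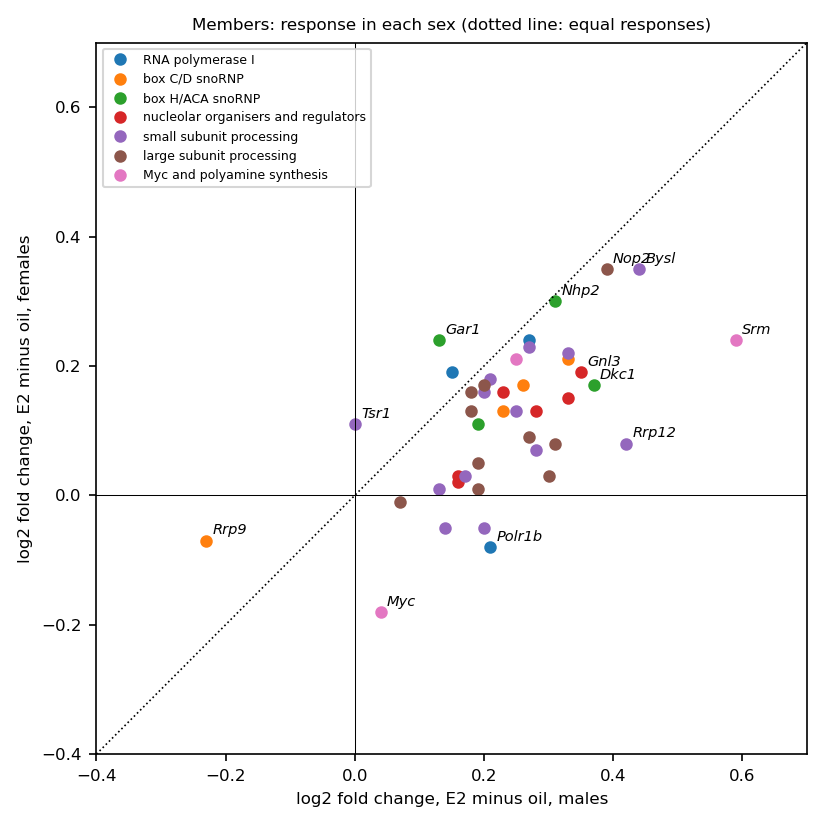
Log2 fold change of each member with E2 in males (horizontal axis) and in females (vertical axis), coloured by role. Of 43 points 39 lie below the dotted line of equal responses; Srm at 0.59 and 0.24 and Rrp12 at 0.42 and 0.08 lie furthest below it.

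The female values moved with single arrays. Female E2 replicate 1 was the highest array of its group for 36 of 43 members, against 42.6% of all genes, and 42 members were above the female oil mean on it. On female E2 replicates 2 and 3 that held for 28 and 22 members. Without female E2 replicate 1 the female median was 0.05 with 26 of 43 members above 0. The averaged median was then 0.15 with 4 members called, while 318 of 9967 genes were called higher. Female oil replicate 1 was likewise the highest oil array for 34 of 43 members (36.6% of all genes). Without it, or without female E2 replicate 3, the female median was 0.19. The male E2 arrays were more alike, with 39, 42 and 41 members above the male oil mean on replicates 1, 2 and 3, and replicate 2 highest for 34 members. Within the groups, the median SD of the members on the log2 scale was 0.09 in male oil, 0.11 in male E2, 0.13 in female oil and 0.20 in female E2 arrays. Over all genes it was 0.11, 0.09, 0.10 and 0.16.

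**Figure D4:**
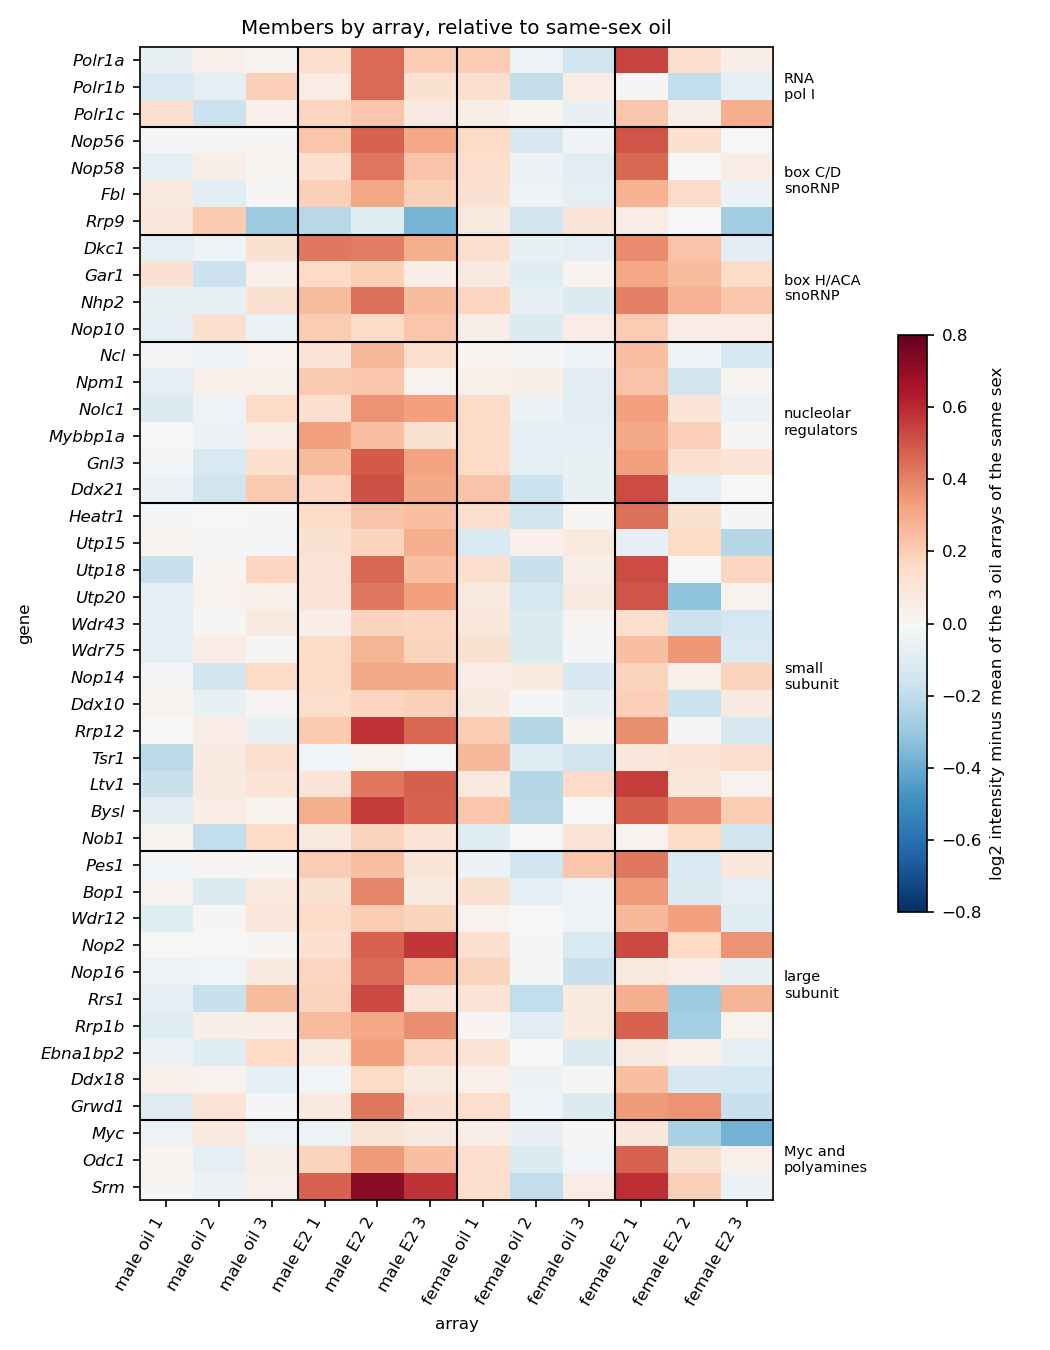
Colour shows log2 intensity of each member (rows, grouped by role) on each array (columns), minus the mean of the 3 oil arrays of the same sex; red is higher and blue lower. The male E2 arrays and female E2 replicate 1 are red in nearly all rows, with 39 to 42 members above the oil mean, and female E2 replicates 2 and 3 are mixed.

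The difference between the sexes in response was tested directly. No member was called by limma (lowest adjusted p 0.954; 0 with an unadjusted p under 0.05), and over all genes 0.0100% were called and 5.37% had such a p. The female response was the smaller estimate for 39 of 43 members, with a median difference of -0.11 (all genes -0.04). The difference was above 0 for 4 members (9.3%), against 40.5% of all genes. The size of this median depended on single arrays. It was -0.04 with 11 members above 0 without female E2 replicate 3, -0.06 with 9 without male E2 replicate 2, -0.07 with 14 without female oil replicate 1, and -0.07 with 10 without female E2 replicate 2. It was -0.21 without female E2 replicate 1 and -0.17 without male E2 replicate 1. After median centring it was -0.20, against -0.13 for all genes. For Srm the difference was -0.35, with a 95% interval of -0.78 to 0.09, and for Rrp12 -0.34 (-0.76 to 0.09). These intervals include no difference and also one as large as the male effect itself. This comparison shares its arrays with those within each sex.

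Sex alone gave 0 called members under oil and 0 under E2 in limma's fit. Under oil, 0 members had an unadjusted p under 0.05 and the median female minus male value was 0.06, with 33 of 43 members above 0 against 49.2% of all genes; 0.0401% of all genes were called and 4.99% had such a p. Under E2 the median was -0.07, with 10 of 43 above 0 against 38.7% of all genes, and 1 member, Nop16 at -0.25 (adjusted p = 0.491), had such a p, with 0.0100% of all genes called and 9.04% at such a p. Neither median was stable. Under oil it was -0.01 with 19 of 43 above 0 without female oil replicate 1, 0.03 without male oil replicate 1, 0.04 without male oil replicate 2 and 0.10 without male oil replicate 3. Under E2 it was -0.01 with 19 above 0 without female E2 replicate 3, -0.03 with 17 without male E2 replicate 2, -0.03 with 15 without female E2 replicate 2, -0.12 without male E2 replicate 1 and -0.16 with 6 without female E2 replicate 1. Srm had the largest value under oil, at 0.25, with all 3 female oil arrays (912 to 1159) above the male ones (852 to 911).

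Several members are covered by more than 1 probe set, and near-identical copies elsewhere in the genome may share their signal. For Odc1, Fbl and Wdr12 the averaged log2 fold changes of the used and the other probe set were 0.23 and 0.23, 0.18 and 0.16, and 0.17 and 0.19. By sex they differed more for Odc1, at 0.25 in males and 0.21 in females by the used one and 0.38 and 0.09 by the other. Npm1 has 3 further probe sets annotated to it together with Gm15484, at 0.11 to 0.13 against 0.09 for its own. With the other probe sets of Ddx18, Fbl, Odc1 and Wdr12 in place, the same 5 members were called. None of those 5 has another probe set, so the exchange could not test their calls. This alternative was chosen after seeing the data.

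The wider pathway was described with further gene lists. Of 142 other genes of ribosome biogenesis (polymerase I cofactors, snoRNP assembly, small and large subunit processing and the RNA exosome) 136 were measured and 131 tested. Averaged over the sexes, 5 rose, 1 fell and 125 did not pass, with a median of 0.10 and 107 above 0. The 5 higher are 3.82% of the list, against 3.12% of all genes. Tbl3, of the small subunit processing complex, rose by 0.34 (adjusted p = 0.013). Rpf2, which helps build the large subunit, rose by 0.32 (adjusted p = 0.00918), and these 2 calls held in all 12 fits that left out 1 array.

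The exosome subunit gene Exosc8 rose by 0.32 (adjusted p = 0.0186), Znhit3, a snoRNP assembly factor, by 0.26 (adjusted p = 0.0443) and the nucleolar methyltransferase gene Rrp8 by 0.24 (adjusted p = 0.036). Exosc8 lost its call without male E2 replicate 2 or female oil replicate 2. The call of Znhit3 held only without male oil replicate 1, female oil replicate 1 or female E2 replicate 2, and that of Rrp8 only without male E2 replicate 1, female oil replicate 1, female E2 replicate 1 or female E2 replicate 2. Sbds, which releases a blocking factor from the new large subunit, fell by 0.23 (adjusted p = 0.0269); its male group means were 957 under oil and 830 under E2, and its female ones 986 and 831. Its call was lost without male oil replicates 1 or 2, any of the 3 male E2 replicates, or female oil replicate 3, at an adjusted p of up to 0.0685.

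The proteins of the finished ribosome showed smaller values. Of 79 cytosolic ribosomal protein genes 55 were matched to a probe set with a single gene symbol, and all 55 were tested. Of these 1 rose, 0 fell and 54 did not pass. Their median was 0.00, with values from -0.07 to 0.29. The 1 gene was Rpl12, at 0.29 (adjusted p = 0.0379), with 0.52 in males and 0.07 in females. Its call did not hold without male oil replicates 1, 2 or 3, male E2 replicates 2 or 3, female oil replicates 2 or 3, or female E2 replicate 2. The mean log2 intensity of this list was 12.49 to 12.54 on every array. Rpl12 was far dimmer than that, at 302 to 470 on the linear scale. Whether the signal range limits the values of so bright a list was not tested.

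Of 18 genes of the Myc network and polyamine metabolism 11 were tested; 1 rose, 1 fell and 9 did not pass, with a median of -0.07. Azin1, the inhibitor of antizyme that keeps ornithine decarboxylase from degradation, rose by 0.47 ± 0.07 (adjusted p = 0.00134). It was called within each sex too, at 0.45 in males (adjusted p = 0.0394) and 0.48 in females (adjusted p = 0.0196), and the averaged call held in all 12 fits that left out 1 array. Azin1 read 315, 334 and 367 in male oil and 427, 455 and 510 in male E2 arrays, and 355, 344 and 297 and 484, 437 and 466 in the female groups. Mxd4, a Max-binding repressor that opposes Myc, fell by 0.28 (adjusted p = 0.0357); its male group means were 764 under oil and 688 under E2, and its female ones 826 and 627. The call of Mxd4 held only in the fits without male oil replicate 3, male E2 replicate 1 or female E2 replicate 3.

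Among the E2 arrays of each sex, S phase genes were high where the members were high. On female E2 replicate 1 the mean of 31 S phase genes was 0.77 above the female oil mean and that of the members 0.31. On female E2 replicates 2 and 3 the S phase mean was 0.13 and 0.07 and the members' mean 0.05 and 0.00. On male E2 replicates 1, 2 and 3 the S phase mean was 0.30, 0.49 and 0.37 above the male oil mean, and the members' mean 0.15, 0.33 and 0.21. Under oil, female oil replicate 1 was highest for both, at 0.22 and 0.10. In male oil the order differed. There the S phase mean was 0.06, -0.11 and 0.05 on replicates 1, 2 and 3, and the members' mean -0.04, -0.02 and 0.06. The mean of 25 G2/M genes was 0.43, 0.16 and 0.23 on the male and 0.42, 0.03 and 0.09 on the female E2 arrays. In males the G2/M order differed from that of the members, since replicate 1 had the highest G2/M mean and the lowest mean of the members. The part of cell division in the members' values was not tested.

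**Figure D5:**
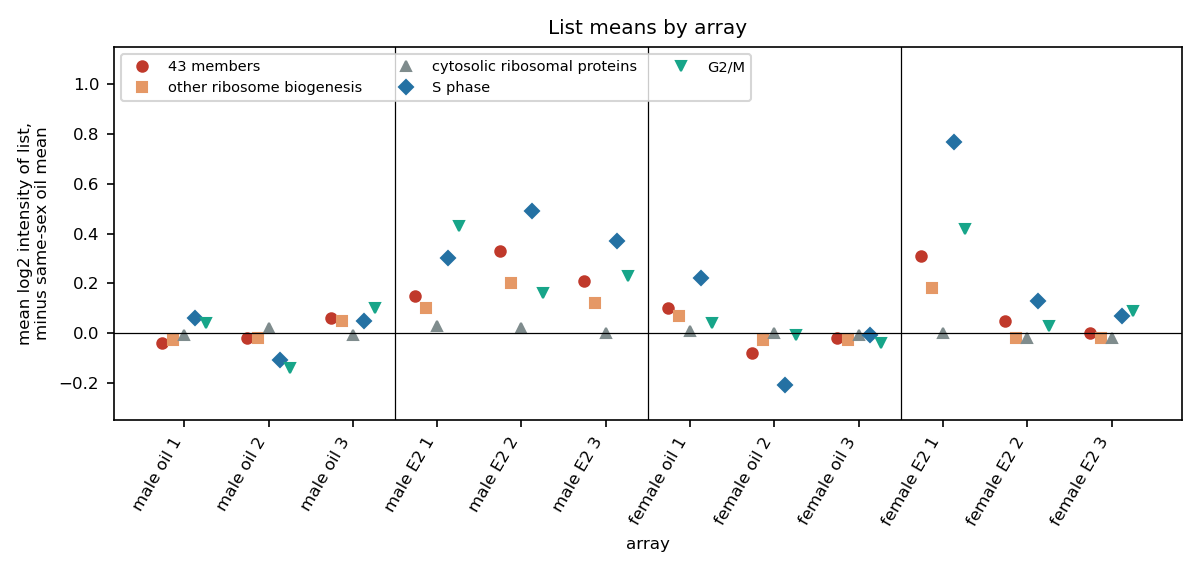
Mean log2 intensity of each gene list on each array, minus the mean of the 3 oil arrays of the same sex. S phase genes reach 0.77 and the 43 members 0.31 on female E2 replicate 1, while the cytosolic ribosomal proteins stay between -0.02 and 0.03 on every array.

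In the same averaged comparison 7 of 31 S phase genes rose (22.6%, against 3.12% of all genes) and 0 fell, with a median of 0.34. Those with the smallest p were Tk1 at 0.50, Uhrf1 at 0.58, Cdc6 at 0.76 and Fen1 at 0.50. Fen1 lost its call without male oil replicates 2 or 3, male E2 replicate 2 or female oil replicate 2. Of 25 G2/M genes 4 rose and 0 fell, with a median of 0.23: Cdk1 at 0.31, Mad2l1 at 0.33, Ndc80 at 0.33 and Nuf2 at 0.38. Mad2l1 lost its call without female oil replicate 2. The call of Ndc80 held only without male oil replicate 1, female oil replicate 1 or any 1 of the 3 female E2 replicates, and that of Nuf2 only without male oil replicate 3, male E2 replicate 3 or female E2 replicate 2. Among all genes 5.78% were called lower, and the marker lists of other cells differed. The granulocyte, B cell, T and NK cell and dendritic cell lists had 1 lower and 0 higher each, the erythroid and the stroma and endothelium lists 1 higher and 0 lower each, and the monocyte and the mast cell and basophil lists 0. The summed intensity of 9 granulocyte markers was high and varied widely within groups. It was 7839 to 16788 in male oil, 7268 to 13248 in male E2, 9369 to 21483 in female oil and 5357 to 14607 in female E2 arrays. Of 6 megakaryocyte markers measured, 5 were tested, of which 1 rose and 4 fell, and their summed intensity was 3129 to 3496 in male oil, 2306 to 2658 in male E2, 3199 to 3429 in female oil and 1676 to 2454 in female E2 arrays. Of 5 progenitor markers, 3 were tested and all 3 fell, with sums of 2413 to 2867, 2063 to 2130, 2441 to 2952 and 1895 to 2173 in the same order. The sum of 8 HSC markers was 9388 to 9458, 8260 to 8722, 8486 to 9208 and 7382 to 8601, with 3 lower and 0 higher. The part of cell composition in the members' values was not tested.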

How the data were processed

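The deposited values are probe set intensity values on a linear scale, which ran from 0.62 to 16148 over 35474 probe sets on 12 arrays; how the authors summarised and normalized them is not stated in the labels. Cells were sorted into Trizol and their RNA was amplified (NuGEN Ovation Pico WTA V2), per the labels' protocols. Of the probe sets, 21780 had 1 gene symbol in the platform's annotation, 1605 several and 12089 none. Only the first kind was used, with the highest-mean probe set per gene, giving 19935 genes. Values were log2(intensity + 1), and genes with a mean above the median gene (7.52) were tested.

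Limma 3.58.1 in R 4.3.3 fitted 1 mean per group to all 12 arrays (8 residual and 5.38 prior degrees of freedom), with calls at an adjusted p under 0.05. Alternatives were other normalizations, a pseudocount of 16, other filters, probe set means, a trended, robust eBayes, weights per array, the compared groups alone, an adjusted p under 0.1, a replicate block and each array left out in turn. The named members are all 43. From each further list the text names up to 4 called genes with the smallest p. Members and lists were chosen with earlier results of these data known. Outlier tests need at least 4 arrays per group and were not run. Python 3.11.15 with matplotlib 3.10.9 drew the figures.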

Additional observations from a re-analysis of the deposited data

How the results depend on the processing

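The number of members called for E2 averaged over the sexes, 5 with all arrays, was 3 without a filter, 8 with trend and robust estimation and 9 at an adjusted p under 0.1. Leaving out 1 array gave 1 to 13. Genes called higher among all genes tested moved as well, from 311 of 9967 with all arrays. They were 194 of 19935 without a filter, 377 of 9967 with trend and robust estimation and 570 of 9967 at an adjusted p under 0.1. With 1 array left out they were 148 to 452. In males the count of 0 became 1 with trend and robust estimation, 3 with array weights, 2 at an adjusted p under 0.1 and 3 with the compared groups alone, and 0 to 1 when 1 array was left out. Among all genes 57 were called higher in males in the main fit. In the same order of settings they were 69, 185, 110 and 196, and 21 to 159 when 1 array was left out. In females the count of members stayed 0 under every alternative run, while 10 to 174 genes were called higher. The averaged median of the members stayed between 0.15 and 0.21 and the male median between 0.18 and 0.27. The female median was 0.07 after median centring and 0.05 to 0.19 when 1 array was left out. The female minus male medians, which single arrays moved, are given with their values above. Of the single values recomputed (all members averaged, 9 of them by sex), 4 changed sign: in the averaged comparison Wdr43 (-0.01 to 0.07) and Ddx18 (-0.03 to 0.06), negative without female E2 replicate 1, Myc in males (-0.00) after quantile normalization, and Rrp9 in females (-0.15 to 0.03), positive without female E2 replicate 3. By counts over all 43, females had 26 (without female E2 replicate 1) to 39 members above 0, with 30 after median centring, and males 41 or 42. The cause was not tested. Array replicates with the same number had correlated deviations of -0.26 to 0.20 over 18 pairs, 4 of them above 0.1. For different numbers the correlations were -0.33 to 0.28 over 36 pairs, 10 of them above 0.1. With 3 arrays per group this cannot tell whether the number pairs the arrays. With a replicate block 4 members were called, with 268 of 9967 genes called higher, and Gnl3 had an adjusted p of 0.0584. All members lay above the filter, but the intensities carry no background level, so how far a dim gene such as Bysl lies above it is not known.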
